A study of Homo sapiens with 11 samples.

Results

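The 5 genes TXNIP, ARRDC3, ARRDC4, SLC2A1 and SLC2A3 were taken by symbol from a table of 38021 genes and followed through 11 conditions. TXNIP, ARRDC3 and ARRDC4 encode proteins with arrestin folds, and SLC2A1 and SLC2A3 encode the glucose transporters GLUT1 and GLUT3. All cells were HEK293T, an established human embryonic kidney line, labelled WT, kept in high-glucose medium and exposed for 6 h. The vehicle was 0.1% DMSO. Thapsigargin (Tg), an inhibitor of the pump that loads calcium into the endoplasmic reticulum (ER), was given at 500 nM. The compound AA147 was given at 10 µM, and the compound AA132 at 0.1, 0.3, 1, 3, 6, 10, 15 or 30 µM. Both are small molecules known as activators of the unfolded protein response, the set of pathways that restores protein folding in the ER. The study asked how far such compounds activate single arms of that response.

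Each condition has 1 labelled sample and 3 numbered columns of counts, which were treated as 3 libraries. Nothing says whether these came from separate cultures, so the p-values measure only the spread between the libraries, which may be technical. Library totals ran from 32.3 to 37.96 M counts, and 21199 to 21926 genes had counts. Libraries of 1 condition differed by more than counting error in all 33 pairs (chi-square per degree of freedom from 4.67 to 64.5, median 8.01). The widest pair was vehicle libraries 1 and 2. With AA132 at 10 µM the pairs with library 1 gave 39.1 and 36.4, against 6.89 for libraries 2 and 3. With AA147 they gave 24.8 and 23.9, against 5.06. HSPA5, the ER chaperone BiP, rose from 960 ± 72.6 CPM (counts scaled to library size) in the vehicle libraries to 11023 ± 276 CPM in those given Tg (SD, n = 3). In every library NEFM and VIM, genes known from HEK293T cells, were present at 37.1 CPM or more, and PAX2, a kidney lineage gene, at 0.407 CPM or more. PTPRC, CD3E, PECAM1, CDH5 and DCN, which mark leukocytes, endothelium and fibroblasts, reached at most 8 counts in any library, while the monocyte gene CD14 lay between 0.25 and 1.83 CPM and the collagen gene COL1A1 between 19.7 and 49.9 CPM.

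Alpha-arrestins are adaptors that bind membrane proteins and, through PPxY motifs, ubiquitin ligases of the NEDD4 family, and so send transporters and receptors to endosomes. TXNIP also binds thioredoxin, and it is known to slow glucose uptake by promoting the internalization of GLUT1. TXNIP and ARRDC4 are known targets of MondoA (MLXIP) and ChREBP (MLXIPL), which pair with MLX on carbohydrate response elements and so tie transcription to glucose metabolites, and TXNIP is also known as a gene that responds to ER stress.

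Promoter sequence is shown for the 4 genes whose counts moved under Tg, as the 250 bases before the outermost RefSeq transcript start (GRCh38.p14), 5′ to 3′ on the gene's strand. RefSeq windows were matched for 4 of the 5 genes, SLC2A3 being the other. Capitals mark every match to a searched motif, on either strand.

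TXNIP: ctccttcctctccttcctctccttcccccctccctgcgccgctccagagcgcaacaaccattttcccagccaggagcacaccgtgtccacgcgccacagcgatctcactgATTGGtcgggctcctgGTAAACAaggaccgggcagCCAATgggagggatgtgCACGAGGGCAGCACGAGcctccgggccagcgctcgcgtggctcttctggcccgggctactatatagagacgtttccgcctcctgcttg

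ARRDC4: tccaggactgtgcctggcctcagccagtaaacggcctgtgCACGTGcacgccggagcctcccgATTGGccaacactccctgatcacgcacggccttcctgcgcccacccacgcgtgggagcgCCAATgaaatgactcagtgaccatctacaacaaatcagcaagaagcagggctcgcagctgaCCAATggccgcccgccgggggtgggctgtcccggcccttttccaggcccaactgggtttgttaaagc

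ARRDC3: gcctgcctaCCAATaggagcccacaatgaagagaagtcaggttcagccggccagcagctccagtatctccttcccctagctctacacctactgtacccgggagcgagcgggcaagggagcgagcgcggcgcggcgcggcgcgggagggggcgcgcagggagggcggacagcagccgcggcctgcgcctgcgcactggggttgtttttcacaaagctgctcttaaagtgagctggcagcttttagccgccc

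SLC2A1: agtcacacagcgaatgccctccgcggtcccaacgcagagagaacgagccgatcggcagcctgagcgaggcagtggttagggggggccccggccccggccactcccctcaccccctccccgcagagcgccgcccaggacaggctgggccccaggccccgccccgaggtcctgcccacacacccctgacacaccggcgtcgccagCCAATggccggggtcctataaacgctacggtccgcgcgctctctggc

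The windows lie at chr1:145996580-145996829 (minus strand) for TXNIP, chr15:97960453-97960702 (plus strand) for ARRDC4, chr5:91383318-91383567 (minus strand) for ARRDC3 and chr1:42958869-42959118 (minus strand) for SLC2A1. The TXNIP window held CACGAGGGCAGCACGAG at -88 to -72 from the start, a match to a pair of CACGNG letters with 5 bases between them, which spells the paired E-box-like sites of a carbohydrate response element. That pair was found in 16 of 35116 RefSeq windows of the same length (0.0456%) and in no other window of the 4 matched genes. TXNIP also held the forkhead (FOXO) letters GTAAACA at -124 to -118, found in 2.98% of windows, and CCAAT boxes at -140 to -136 (reverse strand) and -105 to -101. ARRDC4 held the E-box CACGTG at -210 to -205, found in 6.34% of windows and overlapping the hypoxia core ACGTG on both strands (18.5% of windows), with CCAAT boxes at -187 to -183 (reverse strand), -128 to -124 and -67 to -63. ARRDC3 held CCAAT at -241 to -237 and SLC2A1 held it at -47 to -43, letters that 32% of windows hold. From a second, inner start TXNIP held ACGTG at -162 to -158, and ARRDC3 held GTAAACA at -29 to -23 on the reverse strand. The ER stress element, CCAAT and CCACG with 9 bases between them (0.074% of windows), and the ATF4-type element TGATGNAA (3.14%) were not matched in the 6 windows of these genes. A match describes the letters only, and no binding was measured.

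**Figure D1:**
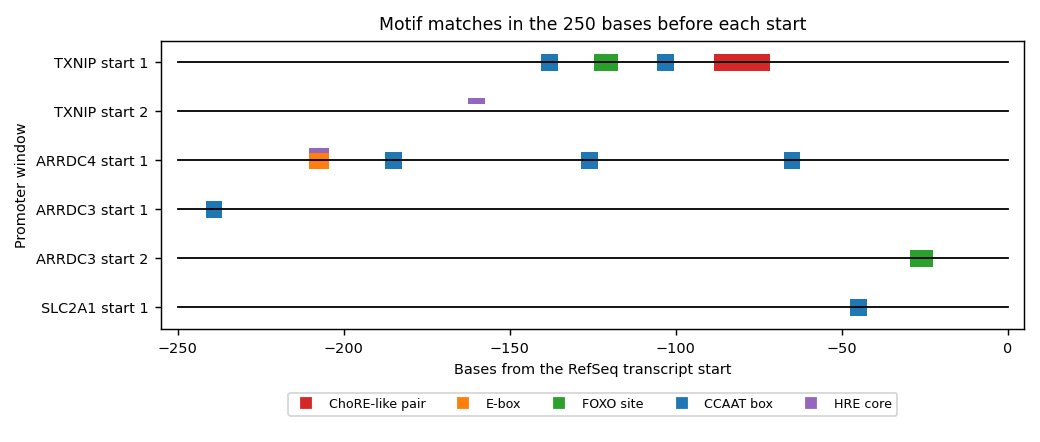
Positions of motif matches in 6 promoter windows of 4 genes, with bases from the RefSeq transcript start on the horizontal axis and 1 line for each window. Coloured blocks are matches, and the hypoxia core is drawn above the line. The searched pair of CACGNG letters appears in the line of the outermost TXNIP start alone, at -88 to -72.

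Levels in vehicle differed widely between the 5 genes, and SLC2A1 was the highest. Per kilobase of annotated exon (GENCODE v44), the vehicle levels were 11.4 ± 0.736 CPM per kb for SLC2A1, 5.92 ± 0.658 for SLC2A3, 2.46 ± 0.532 for ARRDC3, 2.31 ± 0.45 for ARRDC4 and 0.938 ± 0.301 for TXNIP (SD, n = 3). ARRDC3 and ARRDC4 did not differ beyond their spread on this scale. Under Tg the order was the same, with 16.1 ± 0.353 CPM per kb for SLC2A1 and 3.3 ± 0.0499 for TXNIP, the latter then above the vehicle levels of ARRDC3 and ARRDC4. All levels below are CPM of the whole gene and compare conditions, not genes.

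TXNIP (chromosome 1, 145992435 to 145996579, minus strand) rose under Tg and was called in no other comparison with vehicle. In vehicle libraries 1, 2 and 3 it stood at 2.19, 4.32 and 3.63 CPM, from 79, 159 and 137 counts. Under Tg it stood at 11.7, 12.1 and 11.9 CPM, from 432, 443 and 437 counts. The lowest Tg library was above the highest of the 30 other libraries, which ran from 1.88 to 4.32 CPM with a median of 3.37. The fitted fold was 3.52 (95% interval 2.61 to 4.74), a log2 fold change of 1.81 (SE 0.21, edgeR adjusted p = 2.69e-08). Of 17793 genes tested in this comparison, 31.2% were called and 16.2% were called higher, and 1.14% had a larger fitted rise than TXNIP. In a bulk measurement such as this, a change in the share of cells with the transcript cannot be told apart from a change in the amount per cell.

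TXNIP had no called trend across the AA132 doses. The means were 3.43 ± 0.199 CPM with 0.1 µM, 3.3 ± 0.562 with 0.3 µM, 3.12 ± 0.8 with 1 µM, 2.56 ± 0.821 with 3 µM, 3.5 ± 0.824 with 6 µM, 3.4 ± 0.64 with 10 µM and 3.87 ± 0.389 with 15 µM (SD, n = 3). At 30 µM the libraries held 2.88, 4.19 and 2.94 CPM, within the range of vehicle. The fold at 30 µM was 0.987 (95% interval 0.721 to 1.35, edgeR adjusted p = 0.976), so a rise of the size seen under Tg lies outside the interval. The slope over the 24 AA132 libraries was 0.04 on the log2 scale per 10-fold dose (SE 0.07, adjusted p = 0.766). Under AA147 the libraries held 2.89, 2.74 and 3.24 CPM, all inside the vehicle range. When the 11 means were ranked, Tg stood apart and every other pair of neighbours overlapped, down to AA132 at 3 µM, where the libraries held 2.33, 3.47 and 1.88 CPM.

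ARRDC4 (chromosome 15, 97960703 to 97973833, plus strand), a relative of TXNIP that is likewise known to act on glucose uptake, also rose under Tg. It held 7.48, 9.5 and 11.1 CPM in vehicle and 18.4, 16.8 and 17.5 CPM under Tg. The Tg libraries were all above the 30 others, whose range was 6.66 to 13.4 CPM. All the members but SLC2A3 had Tg libraries outside the vehicle range, as 38.2% of all tested genes did. Its fold was 1.87 (95% interval 1.54 to 2.28), a log2 fold change of 0.91 (SE 0.14, edgeR adjusted p = 4.05e-06), and 5.34% of tested genes had a larger rise.

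With AA132, ARRDC4 was highest at the top 2 doses without passing the test. The means from 0.1 to 10 µM lay between 8.75 ± 1.95 CPM, at 3 µM, and 10.5 ± 1.24 CPM, at 1 µM (SD, n = 3). The libraries held 11.8, 12.2 and 13.1 CPM at 15 µM and 13.4, 12.6 and 11.2 CPM at 30 µM. Both sets lay just above the highest vehicle library, which had 11.1 CPM. The fold was 1.32 at 15 µM (95% interval 1.08 to 1.6, edgeR adjusted p = 0.129) and 1.32 at 30 µM (95% interval 1.09 to 1.61, adjusted p = 0.075). The call at 30 µM depended on the tool and on single libraries, since the adjusted p was 0.0405 with DESeq2, 0.0272 without vehicle library 3 and 0.0499 without AA132 3 µM library 3. Its slope over the AA132 doses was 0.12 (SE 0.05, edgeR adjusted p = 0.0638). Under AA147 it held 10.2, 9.82 and 9.32 CPM, inside the range of vehicle.

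ARRDC3 (chromosome 5, 91368631 to 91383317, minus strand), an alpha-arrestin known for its action on beta-adrenergic receptors, rose under Tg and under AA132 at 30 µM. It held 9.2, 14 and 13.6 CPM in vehicle, 19.7, 20 and 19.4 CPM at 30 µM AA132 and 26.2, 22.7 and 22.4 CPM under Tg. The 3 groups did not overlap. Of all tested genes, 38.2% did not overlap between Tg and vehicle and 46.8% between Tg and AA132 at 30 µM. Under Tg the fold was 1.94 (95% interval 1.55 to 2.41), a log2 fold change of 0.95 (SE 0.16, edgeR adjusted p = 1.13e-05), and 4.82% of tested genes had a larger fitted rise. For AA132 at 30 µM the fold was 1.61 (95% interval 1.29 to 2), a log2 fold change of 0.68 (SE 0.16, adjusted p = 0.00548). In that comparison 7.05% of genes were called, 3.86% were called higher and 18.9% had libraries that did not overlap.

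ARRDC3 was also the 1 member of the 5 with a called trend over the AA132 doses. Its means were 10.9 ± 1.46 CPM with 0.1 µM, 10.9 ± 0.928 with 0.3 µM, 12.5 ± 1.23 with 1 µM, 11.9 ± 1.28 with 3 µM, 12.7 ± 1.38 with 6 µM, 14.9 ± 4.66 with 10 µM and 15.5 ± 1.39 with 15 µM (SD, n = 3). At 10 µM the spread came from library 1, at 20.3 CPM against 12.5 and 11.9 CPM in libraries 2 and 3. The slope over 24 libraries was a log2 change of 0.3 for each 10-fold increase in dose (SE 0.05, edgeR adjusted p = 3.33e-05). Of 17554 genes tested for a slope, 18.7% were called and 9.83% were called higher, and 2.11% had a steeper rise than ARRDC3. At 15 µM its libraries lay above those of vehicle (15.1, 14.4 and 17.1 CPM), with a fold of 1.27 (95% interval 1.02 to 1.58) that did not pass (adjusted p = 0.265). ARRDC3 and ARRDC4 were the 2 members whose libraries did not overlap vehicle at 15 µM, where 16.1% of all tested genes did not overlap and 2.76% were called. ARRDC3-AS1, an antisense gene that starts near ARRDC3 (chromosome 5, 91380349 to 91616105, plus strand), held 1.29 ± 0.464 CPM in vehicle and 1.44 ± 0.191 CPM under Tg. Whether counting used the strand is not given in the sources used here, so reads of the overlap may count for either gene.

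SLC2A1 (chromosome 1, 42925353 to 42958893, minus strand) encodes GLUT1, the transporter of basal glucose uptake in most dividing cells, and rose under the same 2 treatments as ARRDC3. It held 80.4, 70.8 and 74.2 CPM in vehicle, 94, 91.7 and 98 CPM at 30 µM AA132 and 108, 104 and 107 CPM under Tg. These 3 groups did not overlap either. Of all tested genes, 18.9% did not overlap between AA132 at 30 µM and vehicle, 38.2% between Tg and vehicle and 46.8% between Tg and AA132. The share for all 3 groups at once was not computed. The fold under Tg was 1.42 (95% interval 1.26 to 1.59), a log2 fold change of 0.5 (SE 0.08, edgeR adjusted p = 1.22e-05). With 30 µM AA132 it was 1.26 (95% interval 1.12 to 1.41), a log2 fold change of 0.33 (SE 0.08, adjusted p = 0.0107). These are small changes in a well-counted gene, from 2389 counts or more in every library, and 13% of tested genes had a larger fitted rise under Tg.

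Below 30 µM the means of SLC2A1 did not rise in step with the dose. The means were 81.6 ± 4.5 CPM with 0.1 µM, 73.6 ± 5.45 with 0.3 µM, 73.5 ± 1 with 1 µM, 72.9 ± 0.239 with 3 µM, 75.9 ± 3.27 with 6 µM, 75.9 ± 11.7 with 10 µM and 83.8 ± 7.81 with 15 µM (SD, n = 3). At 10 µM library 1, the one in which ARRDC3 was high, held the lowest SLC2A1 value of all, 62.5 CPM against 83.3 and 82 CPM. Over all AA132 doses, 30 µM included, the slope was 0.07 per 10-fold dose (SE 0.03, edgeR adjusted p = 0.13), and 0.08 (adjusted p = 0.0359) without that library. The calls of ARRDC3 and SLC2A1 at 30 µM were lost in 1 alternative fit. With vehicle and AA132 30 µM alone in the fit, the adjusted p was 0.13 for ARRDC3 and 0.169 for SLC2A1, with log2 fold changes of 0.68 and 0.33 as before, and 74 genes were called in all against 1255.

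SLC2A3 (chromosome 12, 7919230 to 8019007, minus strand) encodes GLUT3, a transporter of high affinity known best from neurons, and was not called in any comparison. It held 37.4, 45.7 and 45.7 CPM in vehicle and 43, 40.5 and 40.7 CPM under Tg, inside the vehicle range. The fold under Tg was 0.965 (95% interval 0.848 to 1.1, edgeR adjusted p = 0.725), an interval that does not reach the 1.42-fold of SLC2A1. At 30 µM AA132 the libraries held 41.9, 45.5 and 44.3 CPM, a fold of 1.02 (95% interval 0.899 to 1.16, adjusted p = 0.886). Its means over the 11 conditions ran from 37.4 ± 3.95 CPM, at 1 µM AA132, to 43.9 ± 1.83 CPM, at 30 µM AA132, and no neighbours in that order separated (SD, n = 3). The slope over AA132 doses was 0.08 (SE 0.03, edgeR adjusted p = 0.0539), with vehicle, which has no dose and is outside that fit, ranked 4th of the 11 means. SLC2A14, a near-identical copy on the same chromosome (7812512 to 7891148), held 3.34 ± 0.372 CPM in vehicle and 3.04 ± 0.317 CPM under Tg, and reads could be split between the copies. The summed counts of both gave a log2 fold change under Tg of -0.06 (adjusted p = 0.679) and a slope of 0.07 (adjusted p = 0.068).

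**Figure D2:**
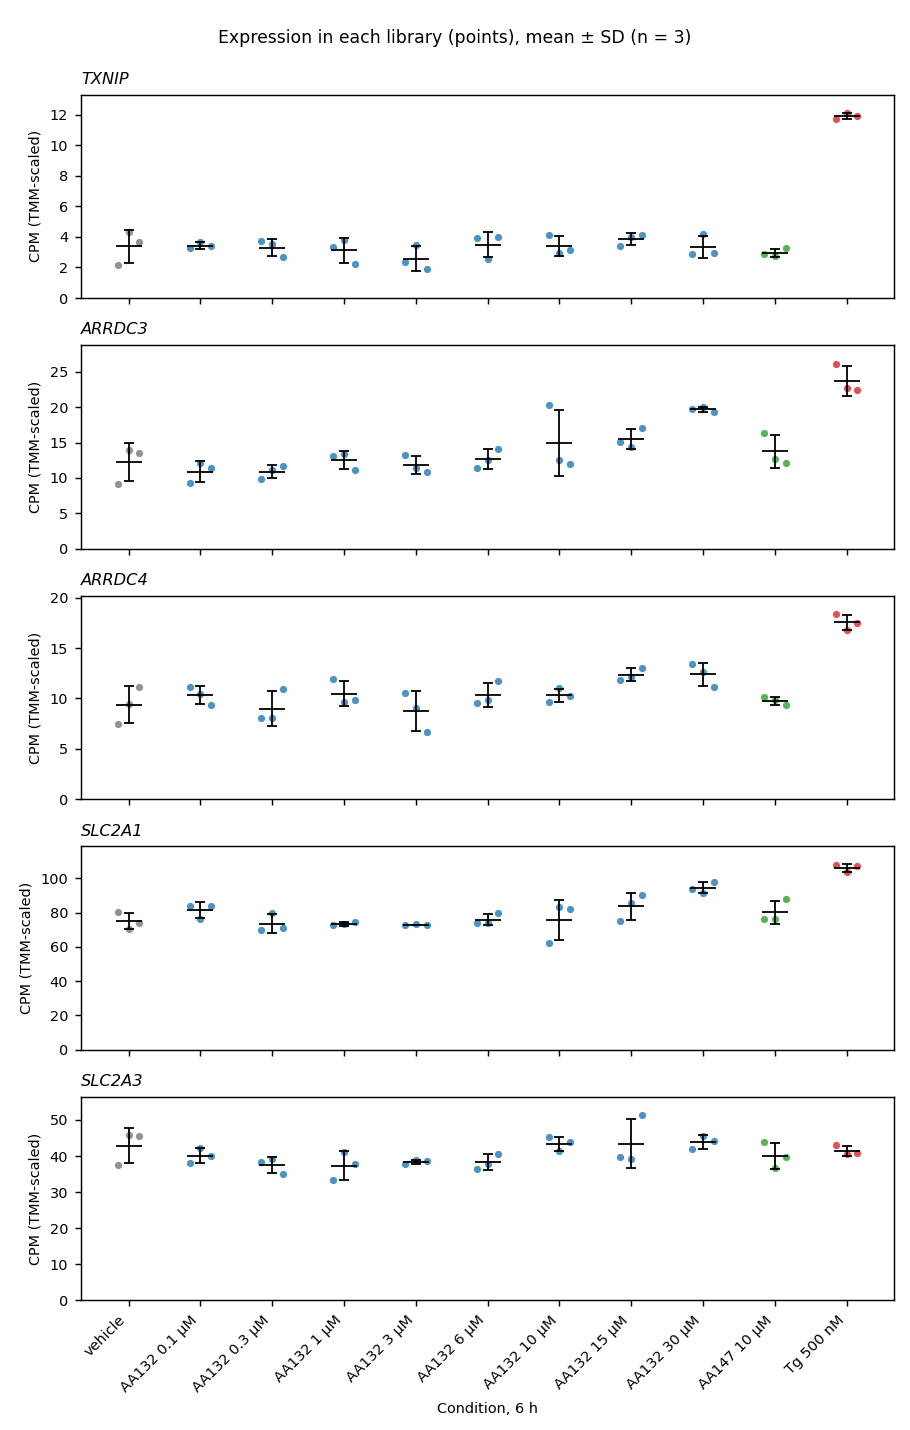
Expression of the 5 genes in each of 33 libraries, in TMM-scaled CPM on the vertical axes (all from 0) and the 11 conditions on the horizontal axis. Points are libraries and bars are the mean ± SD (n = 3). The Tg libraries of TXNIP lie between 11.7 and 12.1 CPM and all others at or below 4.32 CPM, whereas those of SLC2A3 lie within the vehicle range.

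In Tg against vehicle, 4 of the 5 genes were called, all higher, beside 31.2% of all tested genes called and 16.2% called higher, and SLC2A3 was not. In AA132 30 µM against vehicle, ARRDC3 and SLC2A1 were called, both higher, beside 7.05% of genes called and 3.86% called higher. No member was called at the 7 lower AA132 doses, where the share of all genes called ran from 0% at 0.1, 0.3 and 1 µM through 0.118% at 3 µM, 1.07% at 6 µM and 1.41% at 10 µM to 2.76% at 15 µM. These comparisons share the vehicle libraries, in which library 1 was the lowest for TXNIP, ARRDC3, ARRDC4 and SLC2A3 and the highest for SLC2A1. The Tg calls of TXNIP, ARRDC3, ARRDC4 and SLC2A1 were kept in each of 33 fits that left out 1 library, with TXNIP between 1.58 and 2.01 on the log2 scale. Leaving out single libraries likewise kept the calls of ARRDC3 and SLC2A1 at 30 µM AA132 in each of 33 fits.

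**Figure D3:**
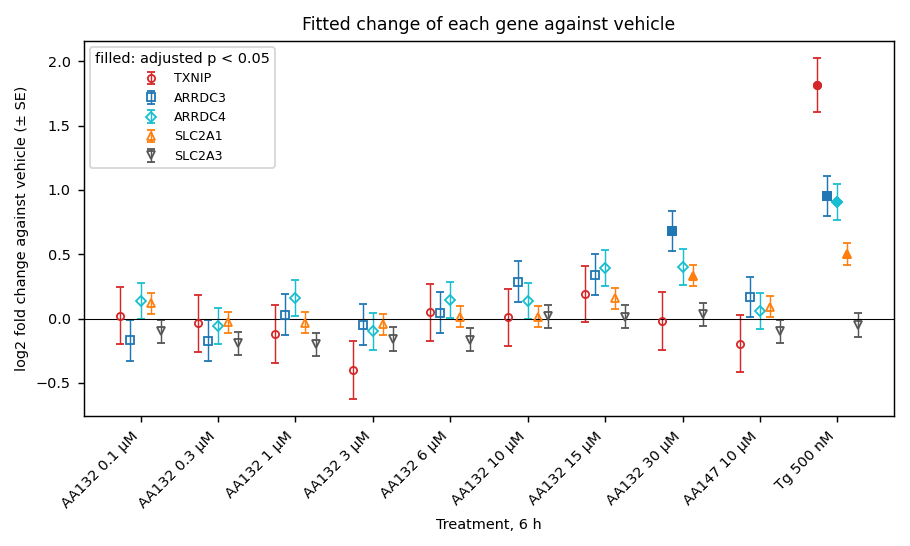
Fitted log2 fold change against vehicle (± SE of the fit) of the 5 genes for each treatment, with filled symbols where the edgeR adjusted p was under 0.05. The largest value is TXNIP under Tg, 1.81, while TXNIP at 30 µM AA132 is -0.02 and ARRDC3 there is 0.68.

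The difference between the treatments was tested directly by setting Tg against AA132 at 30 µM. TXNIP was 3.57-fold higher under Tg (95% interval 2.64 to 4.81, edgeR adjusted p = 2.81e-08), and ARRDC4 was 1.42-fold higher (95% interval 1.17 to 1.72, adjusted p = 0.00503). ARRDC3 was 1.21-fold higher (95% interval 0.972 to 1.49, adjusted p = 0.192) and SLC2A1 1.12-fold higher (95% interval 1 to 1.26, adjusted p = 0.122), and neither passed. For these 4 genes each Tg library was above each AA132 library, as 46.8% of tested genes did not overlap in this comparison and 29.8% were called. SLC2A3 gave 0.943 (95% interval 0.829 to 1.07, adjusted p = 0.535). The doses of the compounds were not matched, so the comparison is of these 2 conditions only.

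AA132 and AA147 were compared at the 1 dose they share, 10 µM, at the same time. None of the 5 genes was called in this comparison, in which 0.0674% of genes were. For ARRDC3, library 1 was the highest in both conditions, at 20.3 CPM with AA132 and 16.4 CPM with AA147. The fold of AA132 over AA147 was 1.15 for TXNIP (95% interval 0.839 to 1.58), 1.09 for ARRDC3 (0.871 to 1.36), 1.05 for ARRDC4 (0.864 to 1.29), 0.947 for SLC2A1 (0.843 to 1.06) and 1.08 for SLC2A3 (0.953 to 1.23). The intervals leave room for differences of up to 1.58-fold in TXNIP and are narrowest for SLC2A1 and SLC2A3. Against vehicle, AA147 gave log2 fold changes of -0.19 for TXNIP, 0.17 for ARRDC3, 0.06 for ARRDC4, 0.09 for SLC2A1 and -0.1 for SLC2A3. None of these passed (edgeR adjusted p from 0.862 to 0.961), where 0.0225% of genes were called.

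Of 7 listed arrestin-fold genes besides the members, 0 were called higher and 2 lower under Tg, beside 16.2% and 15% of all tested genes, with a median log2 fold change of -0.2 against 0.0048 over all genes tested. ARRB1, the beta-arrestin of receptor desensitization, fell from 3.78 ± 0.318 to 2.14 ± 0.249 CPM (SD, n = 3, log2 fold change -0.82, edgeR adjusted p = 1.71e-05), and VPS26B, a retromer subunit, fell by 0.2 on the log2 scale. None of the 7 was called at 30 µM AA132, beside 7.05% of all tested genes. Over the AA132 doses 1 of the 7 was called higher and 1 lower, beside 18.7% of all genes called, with a median slope of -0.028. The called rise was that of ARRDC2, another alpha-arrestin (slope 0.2, edgeR adjusted p = 0.00199).

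Of 12 other SLC2A transporters, SLC2A2, SLC2A5 and SLC2A7 had at most 7 counts in any library and were not tested. Of the 9 others, 1 was called higher and 1 lower under Tg, beside 31.2% of all tested genes called, with a median of -0.13. SLC2A10 (GLUT10) rose from 3.68 ± 0.783 to 10 ± 1.04 CPM (SD, n = 3, log2 fold change 1.44, edgeR adjusted p = 3.15e-09), beside 0.5 for SLC2A1. SLC2A12 (GLUT12) fell from 9.26 ± 1.65 to 4.99 ± 0.457 CPM (-0.89, adjusted p = 1.61e-07). None of the 9 was called at 30 µM AA132, beside 7.05% of all tested genes, although 8 had a positive fitted change and the median was 0.23. Over the AA132 doses 4 of the 9 had a called rise, which were SLC2A10 (slope 0.26), SLC2A12 (0.11), SLC2A8 (0.09) and SLC2A6 (0.09), beside the 9.83% of all genes called higher.

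A list of glucose-sensing factors and the MLX network holds MLXIP, MLXIPL and MLX, the factors named above for TXNIP and ARRDC4. It also holds MNT, MXD1, MXD4 and KLF10. Of its 7 genes, 1 was called higher and 1 lower under Tg, beside 31.2% of all tested genes called, and the median was -0.04. MXD1, a repressor that pairs with MAX and MLX, rose (log2 fold change 0.68, edgeR adjusted p = 0.00685), and KLF10 fell (-0.42, adjusted p = 4.85e-06). MLXIP (-0.1), MLX (-0.04) and MLXIPL (-0.12) were not called. At 30 µM AA132 none of the 7 was called, beside 7.05% of all tested genes. Transcript level does not measure the activity or location of these proteins.

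Among 5 PPxY-binding ubiquitin ligases, partners of the alpha-arrestins, 2 rose and 1 fell under Tg, with a median of -0.15, beside 16.2% of all tested genes called higher and 15% lower. ITCH, the ligase known to target TXNIP, rose by 0.52 on the log2 scale (edgeR adjusted p = 0.000117), NEDD4 rose by 0.37 and WWP1 fell by 0.25. None was called at 30 µM AA132, beside 7.05% of all tested genes, and the median of the list was -0.07.

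Of 5 genes of the thioredoxin system, which are thioredoxins and their reductases, 2 rose and 1 fell under Tg, against the same 16.2% and 15% of all genes. TXN itself, the protein that TXNIP binds, fell from 203 ± 23.1 to 155 ± 2.86 CPM (SD, n = 3, log2 fold change -0.39, edgeR adjusted p = 0.00328), while TXNRD3 rose by 0.53 and the reductase TXNRD1 by 0.37. The 1 call at 30 µM AA132 was TXNRD1, beside 7.05% of all tested genes called. It went from 248 ± 32.5 to 445 ± 27.8 CPM (0.84, edgeR adjusted p = 7.39e-07), in the condition where TXNIP stood at 0.987 of vehicle. TXNRD1 also had the steepest slope of the list, 0.38 per 10-fold dose (adjusted p = 1.2e-09). HMOX1, an oxidative stress gene, stood at 13.1 ± 2.86 CPM in vehicle, 201 ± 10 CPM at 30 µM AA132 and 25.5 ± 3.48 CPM under Tg.

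Glycolysis genes downstream of the transporters mostly fell under Tg. Of 22 tested, 3 were called higher and 13 lower, with a median of -0.25, beside 15% of all genes called lower. HK2, a hexokinase that traps glucose after entry, went the other way and rose from 17.3 ± 2.5 to 58.5 ± 1.24 CPM (SD, n = 3, log2 fold change 1.75, edgeR adjusted p = 1.75e-16), beside 1.81 for TXNIP. HK1, another hexokinase on the list, stood at 241 ± 12.9 CPM in vehicle and 233 ± 16.4 CPM under Tg. PFKFB2 rose by 0.47 and the lactate transporter SLC16A1 by 0.38. The largest called falls were those of PGAM1 (-0.53), PKM (-0.41) and LDHA (-0.4). For these each Tg library was below each vehicle library, where 38.2% of all tested genes did not overlap. Vehicle library 1 was the highest for GAPDH (2652 CPM against 2043 and 2118) and TPI1 (597 against 470 and 450). For both of these the Tg libraries overlapped vehicle. At 30 µM AA132 none of the 22 was called, HK2 included (0.2, edgeR adjusted p = 0.223), beside 7.05% of all tested genes.

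Of 8 tested hypoxia-response genes, a list that shares SLC2A1's known regulation by HIF, 2 rose and 2 fell under Tg, where 31.2% of all genes were called. VEGFA rose from 15.6 ± 0.24 to 45.8 ± 3.45 CPM (SD, n = 3, log2 fold change 1.55, edgeR adjusted p = 3.64e-15) and NDRG1 by 0.62. ADM fell by 0.7 and EGLN3 by 0.37. At 30 µM AA132, NDRG1 (0.48) and VEGFA (0.45) were called higher and PDK1 (-0.3) lower, beside 7.05% of all tested genes called and 3.86% called higher. In none of the lists was a gene called under AA147 or between AA132 and AA147 at 10 µM, beside 0.0225% and 0.0674% of all tested genes.

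Cell markers moved with the treatments as well. Under Tg, VIM fell by 0.79 on the log2 scale, NEFM rose by 0.38, COL1A1 fell by 1.15 and CD14 fell by 1.23, each called. NEFM was also called higher with AA132, by 0.45 at 10 µM, 0.42 at 15 µM and 0.31 at 30 µM on the log2 scale, from 39.7 ± 2.29 CPM in vehicle to 49.4 ± 3.15 CPM at 30 µM (SD, n = 3), and had a called slope of 0.18. COL1A1 was called lower at 10 µM AA132 (-0.51) and had a called slope of -0.11. Their part in the changes of the 5 genes was not tested.

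**Figure D4:**
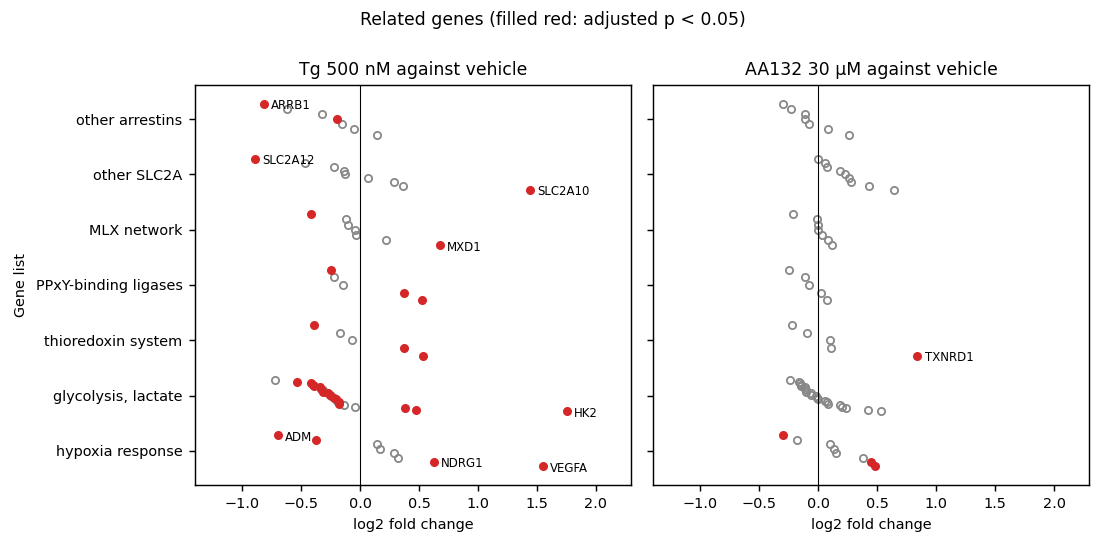
Fitted log2 fold changes of the genes in 7 related lists, on the horizontal axis, for Tg (left) and AA132 at 30 µM (right) against vehicle, with 1 point for each tested gene and red where the edgeR adjusted p was under 0.05. Under Tg the glycolysis points lie mostly below 0 with HK2 at 1.75, and at 30 µM AA132 the farthest called point is TXNRD1 at 0.84. The line labelled MLX network includes KLF10.

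Over the 11 condition means, the members differed in how much their likeness rested on Tg. The Pearson correlation of log2 CPM between TXNIP and ARRDC4 was 0.89 over 11 conditions and 0.66 over the 10 without Tg, and that between TXNIP and ARRDC3 was 0.739 and 0.27. ARRDC3 and ARRDC4 correlated at 0.904 and 0.794, and ARRDC4 and SLC2A1 at 0.923 and 0.801. These describe condition means that share libraries and depth, and no p is given.

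The genes most like each member were taken from 11237 genes with a mean of at least 5 CPM. For TXNIP they were UFSP2 (r = 0.986, and 0.788 without Tg), SRP68 (0.984 and 0.769) and SEC13 (0.984 and 0.748), of which the last encode a signal recognition particle subunit and a COPII coat subunit. UFSP2 held 35.9 CPM in vehicle, 61.3 CPM under Tg and 34 CPM at 30 µM AA132. It was chosen for its likeness to TXNIP, so the shared rise under Tg is not a separate result. Those most opposed to TXNIP were GCNT1 (-0.987), C14orf169 (-0.986) and PDDC1 (-0.985). For ARRDC3 the nearest were PI4K2B (0.984, and 0.972 without Tg), SYP (0.974 and 0.962) and TYW5 (0.972 and 0.962), and the most opposed NT5DC2, SMARCA4 and HNRNPM (-0.984, -0.984 and -0.983). For ARRDC4 they were ACTR8 (0.978) and RIOK3 (0.969), against NTHL1 (-0.971), FUK (-0.963) and EHMT2 (-0.954). For SLC2A1 they were SLC25A38 (0.967) and LOC105373354 (0.966), against CTTN (-0.979), SSB (-0.972) and PNISR (-0.966). For SLC2A3 the values were lower, with ARFIP1 (0.919), ADPGK-AS1 (0.903) and PCTP (0.888) nearest and JAG1 (-0.934), COBL (-0.922) and PITPNM2 (-0.918) most opposed. The genes nearest TXNIP lost more of their correlation without Tg than those nearest ARRDC3. All were chosen with Tg included, and TXNIP was called against vehicle under Tg alone, so this loss follows from the choice.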

How the data were processed

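RNA of HEK293T cells was sequenced in 11 conditions, and 1 table with 3 numbered columns per condition was used. Its values are expected counts per gene, deposited by the authors as total reads on a linear scale per the file headers, with 0.009 in place of 0 in 43.5% of cells and fractions in 3.22%. None of the 5 genes has a fractional value. The build GRCh38.p7 is named in the submitters' processing notes. Aligner, counting tool, annotation and strandedness are not given in the sources used here. The value 0.009 was set to 0, expected counts were rounded, and 98 entries sharing 45 names were summed, which left 38021 genes. Among these are 28 entries whose names had turned into dates. They were kept apart under placeholder names, passed through the same filter and tests as the other genes, and are not named here.

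All 33 libraries entered 1 edgeR 4.0.16 quasi-likelihood model (R 4.3.3, limma 3.58.1), with TMM scaling. Genes with low counts were removed by filterByExpr, and 17793 were tested, all 5 members among them. A call means an adjusted p (Benjamini-Hochberg, over all genes of a comparison) under 0.05, and every adjusted p is from edgeR unless DESeq2 1.42.0 is named. Each treatment was set against vehicle, AA132 against AA147 at 10 µM and Tg against AA132 at 30 µM. Slopes on log10 dose used the 24 AA132 libraries. CPM on the log scale had a prior count of 2. The fits were tried on simulated counts in which all genes had the same spread and no library stood apart. That trial does not cover the uneven libraries seen here. Depth was 32.3 to 37.96 M counts per library. The coefficient of variation beyond counting error, which edgeR fitted in common for all genes, was 9.09%. Single genes can vary more.

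The column numbers showed no steady pairing of the libraries. Deviations of same-numbered libraries correlated at -0.00035 on average, and 13 of 33 libraries correlated best with their own number. Single same-numbered pairs of a treatment with vehicle ranged from -0.62 to 0.363, so the average hides strong values of both signs. Named genes are the 5 members, up to 3 called genes a direction from each list for Tg and for 30 µM AA132, and the 3 genes most and least correlated with each member, of which some are not reported here. VIM, NEFM, COL1A1, CD14 and genes named for slopes or as not called were added after their values were seen. The members and lists were chosen with earlier results of these data known. Gene positions and exon lengths are from GENCODE v44 (GRCh38) and played no part in counting. Alternatives were other scaling, no filter, DESeq2, a fold minimum, fewer conditions in the fit, a block on column number and leaving out each library.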

Additional observations from a re-analysis of the deposited data

How the results depend on the processing

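Without any change of setting, 4 members were called for Tg, 2 for AA132 at 30 µM, 2 for Tg against AA132 at 30 µM and 1 for the slope. The block on column number, which showed no steady pairing, gave the same counts of 4, 2, 2 and 1. Requiring also an absolute log2 fold change of at least 1 gave 1, 0, 1 and 0. With only the 2 compared conditions in the fit, AA132 at 30 µM gave 0 and Tg against it 4, where calls over all genes went from 1255 to 74 and from 5305 to 6238, and library size alone gave 2 for the slope; the cause was not tested. Leaving out 1 library at a time gave 0 to 1 member for AA132 at 15 µM (ARRDC4, 0.54, edgeR adjusted p = 0.0468, without vehicle library 3) and 1 to 3 for the slope. ARRDC4 and SLC2A3 each gained a called slope in 5 of 24 such fits and SLC2A1 in 1 of 24. Without the 30 µM libraries the slope of ARRDC3 was 0.22 (adjusted p = 0.00496). The fit without a filter and DESeq2 called ARRDC4 at 30 µM (adjusted p = 0.0435 and 0.0405).

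No direction was reversed by another tool, scaling, filter or model. Some uncalled differences changed sign when 1 library was left out, over these ranges of log2 fold change against vehicle. For TXNIP they were -0.21 to 0.23 at 0.1 µM AA132, -0.27 to 0.17 at 0.3 µM, -0.35 to 0.089 at 1 µM, -0.18 to 0.26 at 6 µM, -0.22 to 0.22 at 10 µM, -0.041 to 0.40 at 15 µM, -0.25 to 0.19 at 30 µM and -0.42 to 0.017 under AA147. For ARRDC3 they were -0.14 to 0.13 at 1 µM, -0.22 to 0.053 at 3 µM, -0.12 to 0.15 at 6 µM, -0.0093 to 0.42 at 10 µM and -0.18 to 0.27 for AA132 against AA147. For ARRDC4 they were -0.0011 to 0.28 at 0.1 µM, -0.23 to 0.084 at 0.3 µM, -0.25 to 0.064 at 3 µM, -0.0022 to 0.28 at 10 µM and -0.077 to 0.20 under AA147. For SLC2A1 they were -0.089 to 0.023 at 0.3 µM, -0.079 to 0.021 at 1 µM, -0.091 to 0.0062 at 3 µM, -0.031 to 0.069 at 6 µM, -0.056 to 0.13 at 10 µM and -0.15 to 0.040 for AA132 against AA147. For SLC2A3 they were -0.073 to 0.063 at 10 µM, -0.12 to 0.081 at 15 µM and -0.056 to 0.079 at 30 µM. TXNIP, with 69 to 443 counts in a library, has the widest intervals of the 5 genes.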

Other observations

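The paired spelling found before TXNIP was looked up in all RefSeq windows after its values were seen, and it occurred in 16 genes, of which 13 were tested. TXNIP, whose own match prompted the search, is among the 13, so the set is not independent of it. Under Tg 4 of the 13, TXNIP included, were called higher and 3 lower, beside 16.2% and 15% of all tested genes. The median log2 fold change was 0.14. GFPT1, the first enzyme of the hexosamine pathway, rose from 71.2 to 259 CPM (log2 fold change 1.86, SE 0.11, edgeR adjusted p = 7.92e-16), beside 1.81 for TXNIP. MYL5 (0.61) and MTHFS (0.30) were the others called higher. RCN3 (-1.19), TIGD1 (-0.48) and RAN (-0.32) were called lower. At 30 µM AA132 none was called higher and TIGD1 was called lower (-0.70, edgeR adjusted p = 0.00149), beside 7.05% of all tested genes called. GFPT1 stood at 0.26 (edgeR adjusted p = 0.124).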
